A study of Drosophila melanogaster with 2 samples.

Results

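The genes described here encode the proteins with which neurons fire and release transmitter: the vesicle fusion machinery, active zone and vesicle proteins, voltage-gated and calcium-activated ion channels, enzymes and transporters of the transmitters, and receptor subunits, together with elav, the gene of a pan-neuronal RNA-binding protein. They were chosen by name, as a list of 44 symbols, and 43 of these were found among 13945 protein-coding genes on the 6 chromosome arms X, 2L, 2R, 3L, 3R and 4. The symbol Trh had no match by name, and since 3 genes carry it as a synonym it was left out. The data are chromatin immunoprecipitation sequencing (ChIP-seq) of Eyeless, the fly Pax6 transcription factor. Pooled whole larvae of both sexes, in the wandering stage of the third instar, were used, from a transgenic Drosophila melanogaster line that stably expresses Eyeless with GFP fused to its C-terminus (ey-eGFP). An antibody against GFP made the precipitate, per the description in the labels, while their antibody entry reads ey. There is 1 group of 2 biological replicates, numbered 1 and 3, with no other genotype, treatment or stage, so no comparison between conditions was possible. Whole larvae mix neurons with every other tissue, and a region present in few cells and a weak region in many cells cannot be told apart.

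At a chemical synapse, an action potential carried by sodium and potassium channels opens calcium channels at the active zone. Calcium binding to synaptotagmin then lets the SNARE proteins of vesicle and plasma membrane fuse the vesicle, and the transmitter acts on receptor channels of the next cell. In Drosophila acetylcholine is the main fast excitatory transmitter of the central nervous system, and glutamate is that of the neuromuscular junction. Eyeless acts in eye and brain development, in neural progenitors and in some neurons.

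Called regions of 4 deposited lists in the genome build dm6 were used. The optimal list, which passed the authors' irreproducible discovery rate (IDR) threshold, held 6835 regions with signals of 79.3 to 4342. They were the 6835 strongest regions of the pooled list, which had 30000 regions and reached down to a signal of 15.4. The lists of replicate 1 (30000 regions, signals from 8.41) and replicate 3 (27637 regions, signals from 10.7) hold weak regions as well. The signal is the authors' own strength value, with a scale that is not given in the sources used here, so it was compared only within a list. Read depth is unknown. A gene is called bound here when the summit of an optimal region lay in it or within 1 kb of it.

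Few synaptic and ion channel genes had an optimal region near their own start. Over all gene lengths the share with a region in or near the gene stood below that of all genes, but only slightly without a margin. Of the 43 genes 9 (20.9%) were bound, namely elav, ChAT, nAChRalpha6, Syx1A, sei, nSyb, Csp, Shal and nAChRalpha7. Of all protein-coding genes 34.1% were bound. With summits inside the gene alone, without the margin, the gap over all lengths was small: 6 of the 43 (14.0%) had one, against 14.9% of all protein-coding genes. Beside genes of like length the share without the margin was below the background in each length class, as given below. At 3 of the 43 (6.98%), elav, Csp and sei, an optimal summit lay within 500 bp of one of the gene's own transcription start sites (TSSs), against 23.0% of all protein-coding genes. The 43 genes with their 1 kb margins spanned 1620 kb and held 12 optimal summits, or 0.741 per 100 kb, against 5.85 per 100 kb over the spans of all protein-coding genes. No test was made of these shares: the genes were chosen with earlier results of these data known, and genes and regions are not replicate samples.

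Few of the words searched occurred at these summits. Shown, because the calls of 6 bound genes rest on them, are 101 bases of the plus strand of RefSeq's Release 6 (dm6) reference around the strongest optimal summit of each, all in stretches free of annotated untranslated regions. The summit is base 51. Capitals mark any of TATCGATA (the DNA replication-related element DRE), GAGAG (the GAGA factor word), TAATTA (a homeodomain core) and the E-boxes CACGTG and CAGCTG, each searched on both strands.
elav upstream region, chrX:523444-523544, GC content 31.7%: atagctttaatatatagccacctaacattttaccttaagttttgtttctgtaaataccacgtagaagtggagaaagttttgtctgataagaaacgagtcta
ChAT intron, chr3R:18719906-18720006, GC content 25.7%: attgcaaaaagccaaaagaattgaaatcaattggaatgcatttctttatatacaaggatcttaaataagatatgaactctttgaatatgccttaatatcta
nAChRalpha6 intron, chr2L:9828978-9829078, GC content 32.7%: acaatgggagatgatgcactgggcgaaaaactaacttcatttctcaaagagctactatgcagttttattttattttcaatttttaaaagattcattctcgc
Syx1A upstream region, chr3R:24106372-24106472, GC content 37.6%: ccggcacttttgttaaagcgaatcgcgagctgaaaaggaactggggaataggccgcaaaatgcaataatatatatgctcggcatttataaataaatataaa
Shal intron, chr3L:19575813-19575913, GC content 41.6%: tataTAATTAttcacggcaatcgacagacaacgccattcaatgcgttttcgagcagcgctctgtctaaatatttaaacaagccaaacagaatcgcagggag
nAChRalpha7 upstream region, chrX:19348939-19349039, GC content 28.7%: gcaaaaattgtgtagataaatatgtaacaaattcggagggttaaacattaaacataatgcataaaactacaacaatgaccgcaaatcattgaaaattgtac

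Of the 12 optimal regions at these genes, 2 held any of the 5 words within 50 bp of the summit. The TAATTA of the Shal intron was the only homeodomain word (8.33%), against 8.79% of all 6835 optimal regions. The GAGA word was found in 1 region, the second one at elav, against 9.60% of all. The DRE, present in 1.57% of all optimal regions, CACGTG (0.732%) and CAGCTG (3.39%) were found in 0 of the 12. The Pax6 paired-domain consensus with 1 mismatch allowed was also found in 0, against 0.219% of all. Within 100 bp of the summit, that consensus, CACGTG and CAGCTG were each found in 1 of the 12 (8.33%), against 0.644%, 1.89% and 8.44% of all. In the same window the homeodomain word was in 2 (16.7%), against 16.4%, the GAGA word in 1 (8.33%), against 21.5%, and the DRE in 0, against 2.90%. The mean GC content within 50 bp of the summit was 38.4% in the 12 regions and 34.4% in all optimal regions. A word match is a description of the letters and shows no binding by a named factor. Shares of 12 regions are too coarse to be told from the shares of the whole list.

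**Figure D1:**
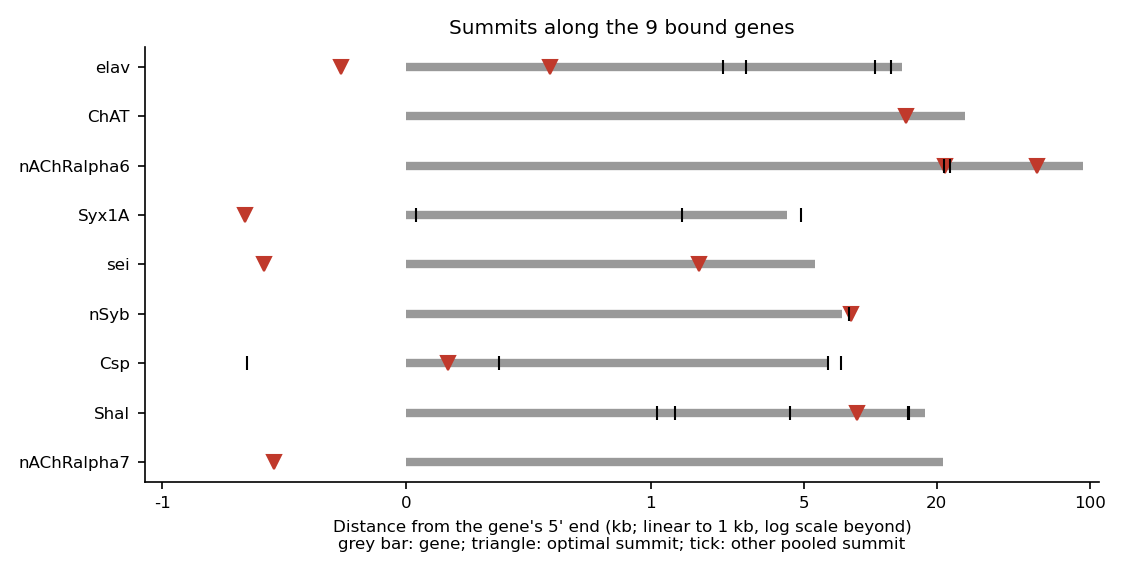
Optimal summits (triangles) and other pooled summits (ticks) along the 9 bound genes, drawn as grey bars from the gene's 5′ end; the horizontal axis gives the distance in kb, linear to 1 kb and logarithmic beyond. At elav, Csp and sei a triangle lies within 500 bp of an own TSS, while those of ChAT, Shal and nAChRalpha6 lie deep in the gene.

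The strongest binding in the set was at the start of elav, whose protein controls splicing and 3′ end choice of neuronal transcripts. The gene (FBgn0260400, X, 509235 to 523226, minus strand) lies within the span of arg, the arginase gene. Its first region (X, 523271 to 523711) had a pooled signal of 865, rank 173 of the optimal list, with the summit 268 bp upstream of the TSS. In replicate 1 this region had a signal of 489 (rank 148) and in replicate 3 a signal of 404 (rank 191). The second region (X, 522474 to 522785, signal 485, rank 589) lay in an intron 590 bp downstream of the same TSS. It had rank 740 in replicate 1 and rank 500 in replicate 3. Both libraries placed both regions among their strongest 1000, and no other gene of the set had a region that strong in either list. A further 4 pooled regions at elav had signals of 16.3 to 42.1.

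Among the genes of membrane fusion, 2 of 6 were bound. Syx1A encodes syntaxin, the plasma membrane SNARE (FBgn0013343, 3R, 24101600 to 24105763). Its region (3R, 24106342 to 24106540, signal 172, rank 2859) lay 659 bp upstream of its TSS, just outside the 500 bp window and inside the span of eIF4EHP, a translation factor gene. It ranked 1828 in replicate 1 and 5403 in replicate 3. A weaker pooled region of signal 62.3 lay at the Syx1A TSS itself, 41 bp away. The region at nSyb, which encodes the vesicle SNARE neuronal synaptobrevin, lay downstream of the gene (3L, 1629339 to 1629768, signal 132, rank 3956). Its summit was 253 bp from the TSS of the neighbouring gene GC and 8058 bp from the nearest nSyb TSS. Replicate 1 had no region there, and replicate 3 had one of rank 4143.

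The other fusion genes had weak regions at most. Complexin (cpx), a clamp and activator of SNARE complexes, had 2 pooled regions, the stronger in an intron with a signal of 37.3, and one of signal 15.5 lay 247 bp from a TSS. Syt1, the gene of the calcium sensor synaptotagmin, had a pooled region of signal 33.7 downstream of the gene, 241 bp from the TSS of CG15399. Snap25, the gene of the remaining SNARE of the complex and 225 kb long, had 1 pooled region of signal 25.7, in an intron. At unc-13, which encodes a vesicle priming factor, no pooled region was found. None of these 4 was bound.

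Of the active zone and vesicle proteins, 1 of 6 genes was bound. Csp encodes cysteine string protein, a co-chaperone of SNAREs on synaptic vesicles. Its region (3L, 22267339 to 22267768, signal 116, rank 4603) sat in the 5′ UTR, 14 bp from one of its 2 TSSs. It had rank 3477 in replicate 1 and rank 7442 in replicate 3, outside the 6835 strongest of that list. A neighbouring pooled region of signal 75.8, 51 bp from the TSS of CG11523, fell just short of the optimal list. At Syn, the synapsin gene, the best of 6 pooled regions had a signal of 73.2 and lay in an intron, 613 bp from the TSS of Timp, a protease inhibitor gene nested in Syn. Sap47 had a pooled region of signal 31.4 placed 37 bp from its TSS, and Rim, an active zone scaffold gene, one of signal 22.7 in an intron. No pooled region was found at brp, the gene of the active zone scaffold Bruchpilot, or at Rab3, which encodes a vesicle GTPase.

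Of the 9 voltage-gated and calcium-activated channel genes, 2 were bound, both potassium channel genes. The gene sei (FBgn0003353, 2R, 24047411 to 24053035) encodes an ERG-type channel and had 2 optimal regions. The stronger (2R, 24048864 to 24049293, signal 133, rank 3923) lay 124 bp from one of its 2 TSSs. It had rank 4176 in replicate 1 and no counterpart in replicate 3. The weaker (signal 83.2, rank 6529) lay 583 bp upstream of sei and 23 bp from the TSS of tsr, which encodes the actin regulator cofilin. Its ranks were 8596 in replicate 1 and 5638 in replicate 3. At Shal, the gene of an A-type channel, the bound region (3L, 19575648 to 19576077, signal 108, rank 4955) lay in an intron, 8705 bp downstream of the TSS, with rank 4950 in replicate 1 and rank 5217 in replicate 3.

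The remaining channel genes were not bound. Shaw had 1 pooled region of signal 64.3 in an intron. Shab had 3, the best of signal 30.6, and one of signal 23.2 that lay 227 bp from a TSS. Shaker (Sh), 139 kb long, had 5 pooled regions with signals up to 24.7. No pooled region was found at cac, the gene of the presynaptic calcium channel, para, the sodium channel gene, eag or slo, the gene of the calcium-activated BK channel. Of these genes cac, para and eag are each over 50 kb long.

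Among the 4 transmitter enzymes 1 gene was bound, ChAT, which encodes choline acetyltransferase, the enzyme that makes acetylcholine. Its region lay in an intron (3R, 18719825 to 18720117, signal 309, rank 1241), 14455 bp from its own TSS, with rank 1007 in replicate 1 and rank 1708 in replicate 3. The gene of the vesicular acetylcholine transporter, VAChT, shares its start with ChAT (3R, 18705501) and ends at 18718916, more than 1 kb short of the summit of that region. At the others the strongest pooled regions were below the optimal list. Gad1, the glutamate decarboxylase gene of GABA synthesis, had one of signal 54.9 in an intron. Ddc, the gene of dopa decarboxylase, had one of 52.6 that lay 876 bp upstream and one of 45.0 that lay 91 bp from the TSS, and ple, the gene of tyrosine hydroxylase, had one of 31.1 placed 3 bp from the TSS. Both Ddc and ple also serve cuticle hardening in the epidermis of larvae.

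All 5 transporter genes (VAChT, VGlut, Vmat, SerT and DAT), which load transmitter into vesicles or clear it from the synaptic cleft, had 0 pooled regions. Among all protein-coding genes 63.4% had a pooled summit in or within 1 kb. Of the 9 nicotinic acetylcholine receptor genes 2 were bound. At nAChRalpha6, a gene of 92.9 kb, the stronger region (2L, 9828957 to 9829166, signal 199, rank 2356) lay in an intron, 57222 bp from its own TSS, and the closest TSS of any protein-coding gene, that of CG13123, was 35921 bp away. It had rank 2175 in replicate 1 and rank 2605 in replicate 3. The second (2L, 9864155 to 9864584, signal 89.7, rank 6022) had rank 5389 in replicate 3 and no counterpart in replicate 1, and an overlapping pooled region of signal 74.3 had its summit in the same intron. At nAChRalpha7 a region (X, 19348774 to 19349203, signal 88.1, rank 6119) lay upstream, 542 bp away from the gene's TSS, with rank 7434 in replicate 3 and no counterpart in replicate 1.

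The other receptor genes had weak regions or none. The region at nAChRalpha5 (signal 72.7) lay downstream of the gene. At nAChRalpha3 8 pooled regions had signals of up to 29.4, at nAChRalpha1 4 had signals of up to 23.8, and nAChRalpha2 had 1 of signal 18.3. No pooled region was found at nAChRalpha4, nAChRbeta1 or nAChRbeta2, nor at Rdl, the gene of a GABA-gated chloride channel. The same held for the neighbouring genes GluRIIA and GluRIIB, which encode glutamate receptor subunits of the neuromuscular junction.

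**Figure D2:**
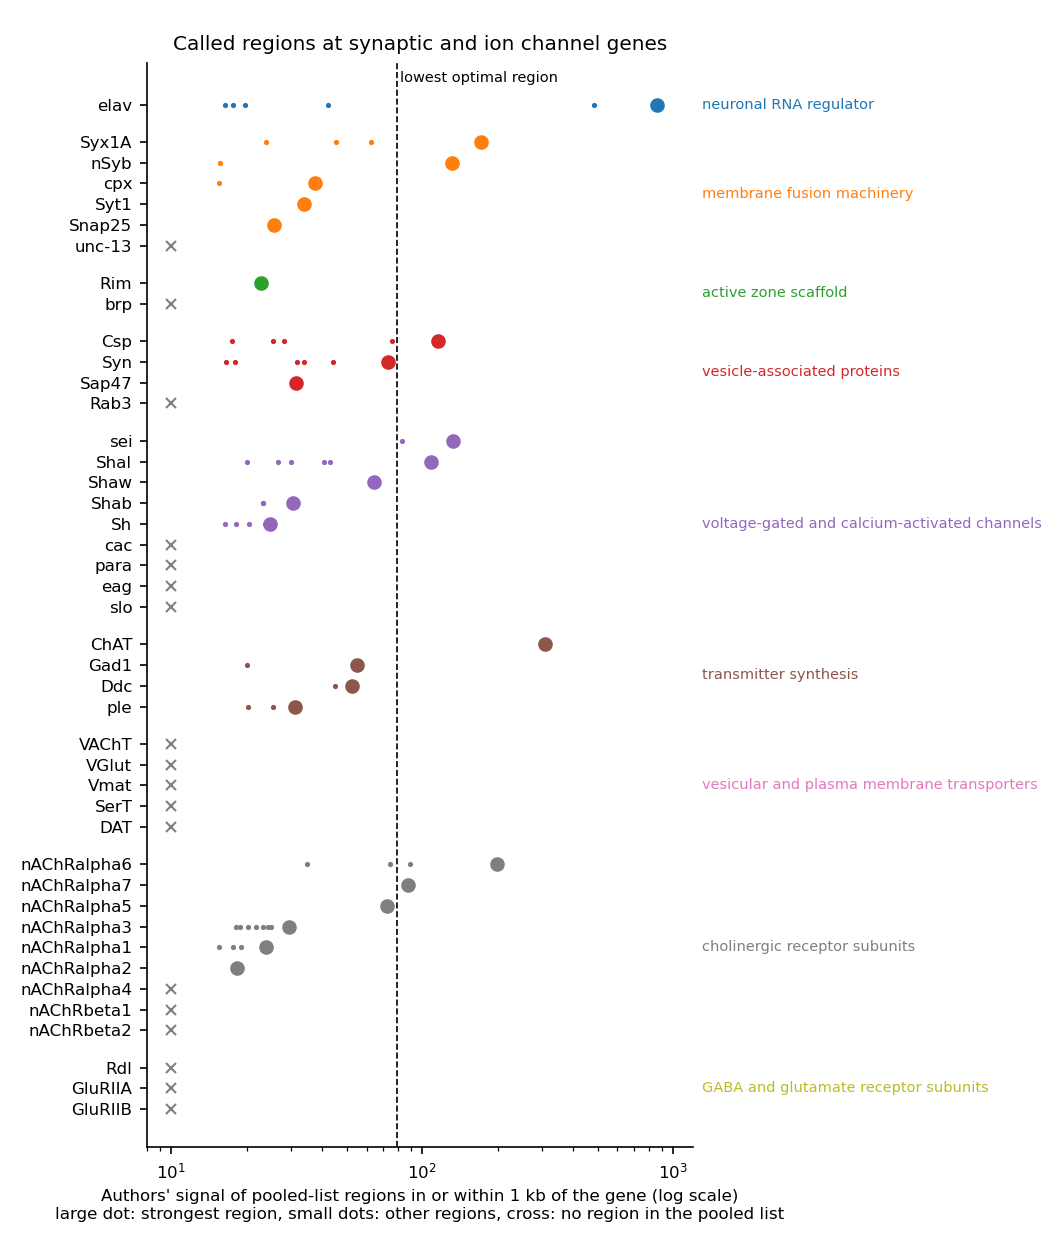
Authors' signal (log scale) of every pooled-list region in or within 1 kb of each of the 43 genes, grouped by role; large dots are the strongest region of a gene, small dots its other regions, and crosses mark the 18 genes with none. The dashed line is the lowest signal of the optimal list, 79.3; elav stands highest at 865, and all 5 transporter genes are crosses.

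Counting weak regions did not bring these genes to the level of all genes at their promoters. In the pooled list 25 of the 43 (58.1%) had a summit in or within 1 kb, against 63.4% of all protein-coding genes. Inside genes alone the direction turned, with 19 (44.2%) against 35.5% of all. A pooled summit within 500 bp of an own TSS was found at 9 (20.9%), against 49.6% of all. The 16 genes with a pooled but no optimal region had best signals of 18.3 to 73.2, with a median of 31.2. Of the 73 pooled summits at the 43 genes, 57.5% lay in an intron and 4.11% in coding sequence.

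Long genes are bound more often in these lists, and many of the 43 are long. Of the 11 genes of 50 kb or more 1 was bound (9.09%), against 68.4% of all protein-coding genes of that length. In the class of 20 to 50 kb 2 of 12 were bound (16.7%), against 60.8%. In the class of 5 to 20 kb the count was 5 of 16 (31.2%), against 50%, and under 5 kb it was 1 of 4 (25.0%), against 27.5%. The 3 genes with an optimal summit at an own TSS were all in the class of 5 to 20 kb, where 3 of 16 (18.8%) stood beside 31.5% of all genes of that length. In the other classes the count was 0 of 4, 0 of 12 and 0 of 11, against 20.4%, 30.0% and 27.0% from the shortest class to the longest. With summits inside genes alone, the counts from the shortest class to the longest were 0 of 4, 4 of 16, 1 of 12 (8.33%) and 1 of 11 (9.09%), against 6.35%, 33.4%, 54.8% and 63.5% of all protein-coding genes. Within genes of 20 kb or more, the spans of the synaptic and channel genes held 0.279 optimal summits per 100 kb and those of all protein-coding genes 4.59.

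**Figure D3:**
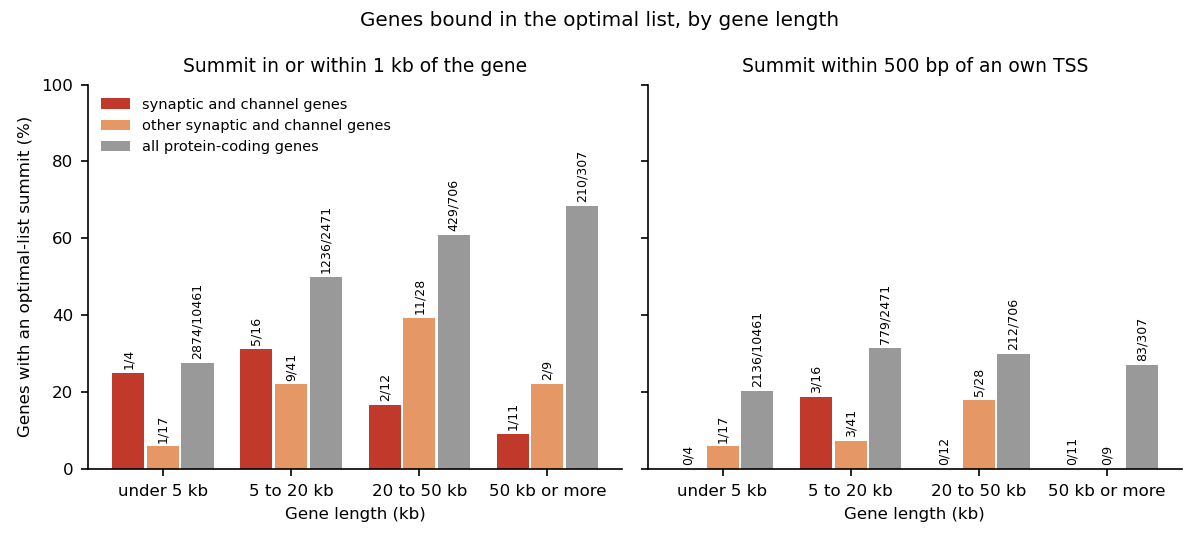
Percentage of genes with an optimal-list summit in or within 1 kb of the gene (left) and within 500 bp of an own TSS (right), by gene length class; counts stand above the bars. For genes of 50 kb or more the left panel shows 9.09% of the synaptic and channel genes and 68.4% of all protein-coding genes.

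The 12 optimal regions were of middling strength, and fewer of them were shared by both replicates' strongest regions than in the whole optimal list. Their signals ran from 83.2 to 865 with a median of 133, against a median of 149 for all optimal regions. Of the 12, 6 overlapped one of the 6835 strongest regions of both replicates, against 80.1% of all optimal regions. In replicate 1, 3 of the 12 (25.0%) had no overlapping region at all, against 1.40% of all optimal regions, and in replicate 3 this held for 1 (8.33%), against 0.395%. By gene, 7 of the 43 had a summit among the 6835 strongest regions of each replicate: elav, Syx1A, Csp, Shal, sei, ChAT and nAChRalpha6. The share over all protein-coding genes was 29.4%. At sei and Csp the replicates' strongest lists held different regions. With the same region required, overlapping by 1 bp, 5 genes were left (11.6%), against 28.9% of all protein-coding genes. The calls at nSyb and nAChRalpha7 had no region in replicate 1 and rest on replicate 3 and the pool.

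**Figure D4:**
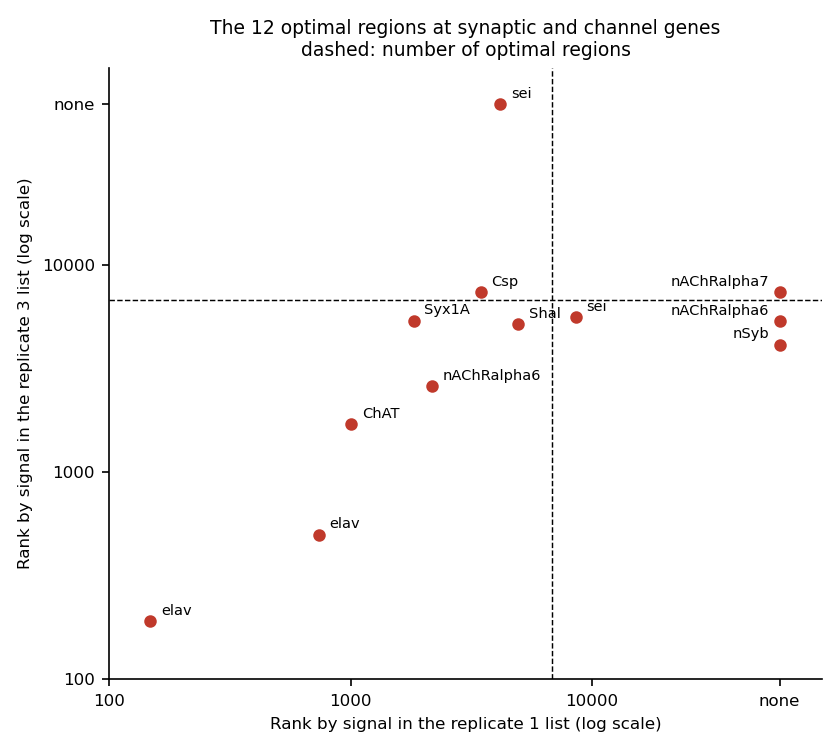
Rank by signal of the 12 optimal regions in the replicate 1 list (horizontal) and the replicate 3 list (vertical), both on log scales; dashed lines mark rank 6835 and "none" means no overlapping region. The regions of elav, ChAT, Syx1A and Shal and the stronger one of nAChRalpha6 lie inside both lines, and 3 regions have no counterpart in replicate 1.

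Of the 12 optimal summits 8 had a TSS of the gene itself as the closest protein-coding TSS and 4 that of another gene. For 2 of these 4, at nSyb and sei, the other TSS lay within 500 bp, so these regions are promoter regions of GC and tsr as much as neighbours of a synaptic gene. In all, 5 of the 12 summits (41.7%) were within 500 bp of any protein-coding TSS, against 39.1% of all optimal summits. A further 3, at Shal and nAChRalpha6, had no protein-coding TSS within 5 kb, as had 1712 of all 6835. Distance does not show on which gene a region acts.

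The replicate lists differed in weak regions at these genes. In the whole list of replicate 3, 39 of the 43 (90.7%) had a summit in or within 1 kb, against 66.6% of all protein-coding genes. In that of replicate 1 the count was 18 (41.9%), against 61.8%. A summit in replicate 3 and none in replicate 1 was found at 22 genes (51.2%), against 12.8% of all, and the opposite at Syt1 alone (2.33%), against 8.07%. The 22 included brp, cac, para, Sh, eag, Rdl and all 5 transporter genes. The lists differ in length. With the 20505 strongest regions of each, 32 genes had a summit in replicate 3, against 58.7% of all protein-coding genes, and 14 in replicate 1, against 56.4%.

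Gene length bore on the shares of all protein-coding genes in both replicates. In replicate 3 the counts were 2 of 4 under 5 kb, 15 of 16 (93.8%) from 5 to 20 kb, 11 of 12 (91.7%) from 20 to 50 kb and 11 of 11 at 50 kb or more. All protein-coding genes of those classes stood at 58.7%, 87.4%, 97.3% and 96.1%, so beside genes of like length the set was near the background. In replicate 1 the counts were 2 of 4, 6 of 16 (37.5%), 7 of 12 (58.3%) and 3 of 11 (27.3%), and all protein-coding genes stood at 56.0%, 78.7%, 81.2% and 81.1%. There the set stood below genes of like length in each class. A summit in replicate 3 alone was found at 0 of 4, 9 of 16 (56.2%), 5 of 12 (41.7%) and 8 of 11 (72.7%), against 12.5%, 12.6%, 16.9% and 15.3% of all.

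Among the 6835 strongest regions of replicate 3, a summit was found at 10 of these genes (23.3%), against 34.5% of all protein-coding genes. Replicate 3 also held many weak regions at these genes that the pooled list lacked. Of its 117 summits at the 43 genes, 64 (54.7%) overlapped no pooled region, against 23.1% of the whole list. The signals of these 64 ran from 10.7 to 32.3 with a median of 13.3, and the summits of the whole list that overlapped no pooled region had a median of 12.8. In the list of replicate 1, 8 of 45 summits (17.8%) overlapped no pooled region, against 14.7% of that list. Of the 18 genes without a pooled region, 15 had a region in replicate 3, with best signals of 10.8 to 28.2, and 1 (slo) had one in replicate 1. Near own TSSs the lists were closer, with 11 genes (25.6%) in replicate 3, against 46.2% of all, and 8 (18.6%) in replicate 1, against 50.9%. Only nAChRbeta1, GluRIIA and GluRIIB had no summit in any of the 4 lists. The depth of the libraries is unknown, and what makes the weak regions of the replicates differ was not tested.

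**Figure D5:**
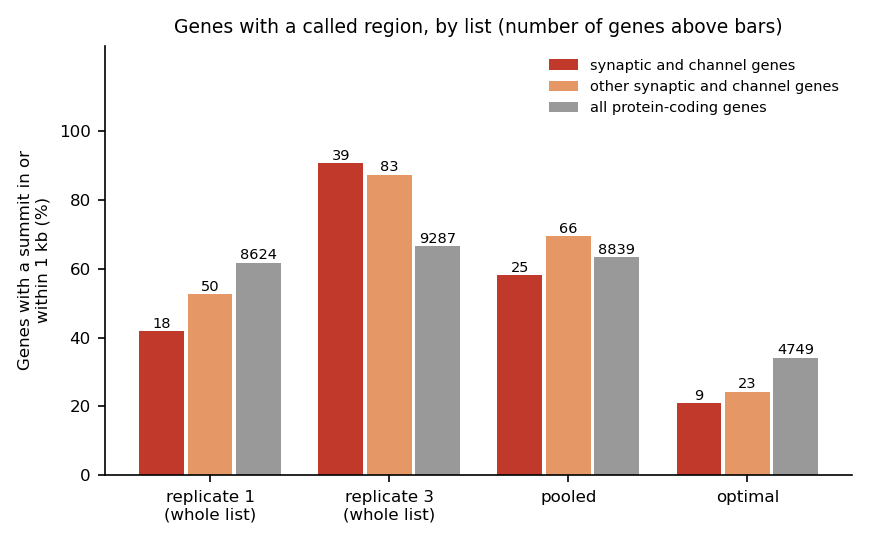
Percentage of genes with a summit in or within 1 kb in the whole lists of replicates 1 and 3, the pooled list and the optimal list, with the number of genes above each bar, for the 43 synaptic and channel genes, the 95 further ones and all protein-coding genes. The 43 synaptic and channel genes are at 41.9% in replicate 1 and 90.7% in replicate 3, while all protein-coding genes are at 61.8% and 66.6%.

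Other synaptic and channel genes were looked at as a second list of 99 symbols, of which 95 were found. Of these 23 (24.2%) were bound, and 9 (9.47%) had an optimal summit within 500 bp of an own TSS, against 34.1% and 23.0% of all protein-coding genes. Inside genes alone, over all lengths, 15 (15.8%) had an optimal summit, against 14.9% of all. Beside genes of like length the share was lower in each class. Under 5 kb it was 0 of 17, against 6.35%, and from 5 to 20 kb 17.1%, against 33.4%. From 20 to 50 kb it was 28.6%, against 54.8%, and at 50 kb or more 0 of 9, against 63.5%. By the role assigned when the list was made, 11 of 21 further channel genes and channel subunits were bound. So were 7 of 31 listed for release, active zone and endocytosis. Of those listed as transmitter enzymes and transporters 2 of 15 were bound, Glt and Gs2, and of those listed as receptors 3 of 28. The role assigned to Glt is doubtful. Those with a region near an own TSS were AP-2alpha, an endocytic adaptor gene (signal 421, 132 bp), Nrx-1, the neurexin gene (269, 115 bp), Hk, which encodes the Shaker beta subunit (249, 181 bp), Irk1, an inward rectifier gene (225, 334 bp), NaCP60E (217, 98 bp), dlg1 (167, 481 bp), Ca-beta (100, 274 bp), Glt (83.4, 80 bp) and CASK (80.4, 483 bp). At NaCP60E the TSS of RpL41, a ribosomal protein gene, was closer, at 84 bp, and at Irk1 a TSS of CG46310 was equally near. Shaker itself was not bound, whereas the gene of its beta subunit was. The 3 bound receptor genes, named after their values were seen, were Nmdar1 and Nmdar2, which encode NMDA receptor subunits, and mAChR-B, a muscarinic receptor gene.

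The DRE, a word of promoters of broadly expressed genes, was also counted at the starts of these genes. Within 500 bp of the first TSS, 3 of the 43 (6.98%), Snap25, eag and sei, held TATCGATA, against 12.3% of all protein-coding genes, a gap too small to read in 43 genes. Of these 3, sei had an optimal summit within 500 bp of a TSS, but at its other TSS inside the gene and not at the first. Among the 40 synaptic and channel genes without the word 2 had one. Of all protein-coding genes 36.3% of those with the word and 21.2% of those without it had an optimal summit within 500 bp of an own TSS.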

How the data were processed

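Per the labels' description and the listings deposited with each sample, regions were called on ChIP alignments of each replicate and of both replicates pooled, with 1 further input file common to these lists (the labels name a possible control), and the optimal list was derived from these 3 lists. For the alignment, the calling and the IDR threshold, no tool or setting was given in the labels or listings. Each region carries the signal the authors deposited, a strength value of unstated scale, and a summit offset in bases from its start. Only the dm6 lists were used, with gene models of Ensembl release 115 (BDGP 6.54) and the Release 6 sequence of RefSeq, within which no region lay past the end of its arm. Lists in dm3 were not used.

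A summit (start plus offset) was assigned to a gene when inside it or within 1 kb, and to a TSS of any of its transcripts within 500 bp. A replicate's value for a region was its strongest overlapping region. Shares were set beside those of all protein-coding genes and of 4 length classes. Assignments were tested on simulated data with Python 3.11.15. Depth is not recorded, and with 1 group of 2 libraries no test was made. The genes and lists were chosen with earlier results of these data known. Every listed gene is accounted for. Genes given with values were those with an optimal summit, those with a pooled summit near an own TSS, the 5 next strongest, and the second list's genes with an optimal summit near an own TSS. The best signals of the other 6 genes with a pooled region are given to account for them, outside that rule. The DRE count at gene starts, the density in genes of 20 kb or more, the replicate shares by length and the counts without margin by length were added after seeing the data. Alternatives changed the windows, the lists, the threshold and the overlap.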

Additional observations from a re-analysis of the deposited data

How the results depend on the processing

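The 9 bound genes became 6 (14.0%) with no margin around genes, against 14.9% of all protein-coding genes, 20 (46.5%) with a margin of 5 kb, against 55.3%, and 4 (9.30%) among the 3417 strongest optimal regions, against 21.2%. Leaving out a replicate here means using the list of the other replicate, with no new pooling or IDR step. Its 6835 strongest regions stood in for the optimal list and its whole list for the pooled list. Leaving out replicate 3 gave 7 (16.3%), against 33.4%, and leaving out replicate 1 gave 10 (23.3%), against 34.5%. The 3 genes with an optimal summit within 500 bp of an own TSS became 2 (4.65%) with 250 bp, against 18.5%. With 1000 bp they became 5 (11.6%), against 26.8%, and among the 3417 strongest 1 (2.33%), against 13.2%. Without replicate 1 only elav was left (2.33%), against 23.2%, and without replicate 3 the count was 3 (6.98%), against 23.0%. The 25 genes with a pooled summit became 19 (44.2%) with no margin, above the 35.5% of all protein-coding genes. In each length class from 5 kb up they stayed below. The 25 became 18 (41.9%) without replicate 3, against 61.8%, and 39 (90.7%) without replicate 1, against 66.6%. Beside genes of like length the share in replicate 3 was near the background, as given above. An alternative chosen after seeing the data took the 20505 strongest regions of 1 replicate. It gave 14 (32.6%) in replicate 1, against 56.4%, and 32 (74.4%) in replicate 3, against 58.7%. The 7 genes bound in both replicates (16.3%, against 29.4%) became 14 (32.6%) with 3 times as many regions, against 48.6%. They became 5 (11.6%) when the same region had to overlap by 1 bp, against 28.9%. With an overlap of 50% of both lengths 3 were left (6.98%), against 26.1%. The 12 optimal summits became 5 among the 3417 strongest and 8 to 12 without one replicate. Of the second list 23 were bound, 15 (15.8%) with no margin, against 14.9% of all protein-coding genes, and 40 (42.1%) with 5 kb, against 55.3%. With no margin its share was below that of genes of like length in each class. Among the 3417 strongest 13 (13.7%) were bound, against 21.2%. Without replicate 3 the count was 21 (22.1%), against 33.4%, and without replicate 1 it was 23 (24.2%), against 34.5%. Other alternatives also moved some of the counts, and the cause of the moves was not tested. With Trh ambiguous, matching through synonyms added no gene. No paired analysis was possible because the samples form 1 group.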
